A study of Mus musculus with 3 samples.

Results

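The grey-lethal mouse (gl/gl) is osteopetrotic and carries no functional Ostm1, and the RNA of its DN1 thymic cells was compared with that of wild type mice. DN1 cells are the most immature gate of the thymus, sorted here as lineage-negative, CD44-positive and CD25-negative. Both genotypes were on a mixed 129sv/C3H background and 19 days old, and there was 1 library for each: cells of 2 wild type mice and of 3 gl/gl mice were pooled. A gl/gl library with an Ostm1 transgene under CD2 control, from 3 mice, is given only where its value stands beside a result. X and Y genes were left out. Levels are in FPKM (fragments scaled for the length of the transcript and the size of the library), and genes were kept as measured where either library reached 1 FPKM. This left 12151 genes of the 23348 lines used. A gene is called higher or lower at a difference of 1 or more on the scale of log2(FPKM + 1), which is 2-fold and understates the change of low genes. With 1 library a genotype, no difference has a replicate check and no test of the genotypes was possible.

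Ostm1 encodes a membrane protein that pairs with Clcn7, the chloride-proton exchanger of lysosomes and of the ruffled border with which osteoclasts dissolve bone, and each protein needs the other for stability. The grey-lethal allele is known as a deletion that takes away the promoter and the first exon of the gene. Mice that lack Ostm1 have dense bone with little marrow space, pale coats and neurodegeneration, and their thymus shrinks early. DN1 cells include the progenitors that enter the thymus from blood, which divide, respond to Notch and Kit signals and then commit to the T lineage, and other lineage-negative cells that share the gate.

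The promoter of the missing gene and those of the groups described further on can be set side by side as sequence. The reference windows below hold the 250 bases before the start of 7 genes (RefSeq, GRCm38.p6, 5′ to 3′ on the strand of the gene). The Ostm1 window, chr10:42678666-42678915 on the plus strand, is shown because it lies directly before the start of the gene that was listed at 0 in gl/gl. Ifit3 (chr19:34583279-34583528, plus) and Rsad2 (chr12:26456453-26456702, minus) stand for the interferon-stimulated genes, with the core of the interferon-stimulated response element, TTTC, any 2 bases and TTTC, in capitals. Mcm6 (chr1:128359706-128359955, minus) and Cdc6 (chr11:98907901-98908150, plus) stand for DNA replication, with the E2F sites TTTCCCGC or TTTGGCGC in capitals, read on either strand. Cd300lf (chr11:115133993-115134242, minus) and Fcgr4 (chr1:171018676-171018925, plus) stand for the paired receptors of leukocytes, with the PU.1 element GAGGAAG in capitals, here read as its complement. These 6 genes were chosen because their windows hold the motif, which many members of the same lists lack. RefSeq and the deposited table place some starts differently: the windows of Cdc6 and Cd300lf lie inside the loci of the table, which begin at 98907889 for Cdc6 and at 115162240, on the minus strand, for Cd300lf.
Ostm1: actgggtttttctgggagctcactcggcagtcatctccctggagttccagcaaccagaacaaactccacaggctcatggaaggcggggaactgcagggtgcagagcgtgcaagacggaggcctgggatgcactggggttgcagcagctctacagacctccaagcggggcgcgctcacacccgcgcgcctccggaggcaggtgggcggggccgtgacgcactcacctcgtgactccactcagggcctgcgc
Ifit3: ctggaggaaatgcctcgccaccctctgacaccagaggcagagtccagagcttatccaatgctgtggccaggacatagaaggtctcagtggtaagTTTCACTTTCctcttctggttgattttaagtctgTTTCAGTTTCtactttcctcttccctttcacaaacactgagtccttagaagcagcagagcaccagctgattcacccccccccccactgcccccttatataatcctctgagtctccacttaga
Rsad2: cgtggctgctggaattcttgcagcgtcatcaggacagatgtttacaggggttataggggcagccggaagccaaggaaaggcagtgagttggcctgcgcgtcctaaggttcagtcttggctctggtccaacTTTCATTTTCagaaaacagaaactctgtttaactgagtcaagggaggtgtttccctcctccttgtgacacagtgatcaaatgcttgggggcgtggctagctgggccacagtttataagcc
Mcm6: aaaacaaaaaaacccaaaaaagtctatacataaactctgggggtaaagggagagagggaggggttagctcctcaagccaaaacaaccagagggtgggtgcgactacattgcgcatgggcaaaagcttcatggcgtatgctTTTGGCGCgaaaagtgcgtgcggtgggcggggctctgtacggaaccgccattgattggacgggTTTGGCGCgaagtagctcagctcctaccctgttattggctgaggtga
Cdc6: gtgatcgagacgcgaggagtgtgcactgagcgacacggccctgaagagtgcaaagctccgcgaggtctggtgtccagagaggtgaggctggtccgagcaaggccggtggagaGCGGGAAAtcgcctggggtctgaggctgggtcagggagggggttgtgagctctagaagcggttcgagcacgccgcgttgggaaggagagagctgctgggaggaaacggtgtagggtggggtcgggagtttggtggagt
Cd300lf: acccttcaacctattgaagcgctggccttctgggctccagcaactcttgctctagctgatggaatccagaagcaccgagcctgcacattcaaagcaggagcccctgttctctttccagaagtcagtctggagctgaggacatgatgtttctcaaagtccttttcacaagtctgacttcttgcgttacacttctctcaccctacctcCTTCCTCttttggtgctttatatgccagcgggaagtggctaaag
Fcgr4: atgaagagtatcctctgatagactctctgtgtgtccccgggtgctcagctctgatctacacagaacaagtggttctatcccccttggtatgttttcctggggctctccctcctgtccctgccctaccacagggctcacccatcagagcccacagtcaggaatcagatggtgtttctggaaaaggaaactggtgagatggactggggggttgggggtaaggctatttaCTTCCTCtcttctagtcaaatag

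The libraries held 11378 genes at 1 FPKM or more in wild type and 11701 in gl/gl, and 5 FPKM on a transcript of 2 kb corresponded to about 446 and 268 fragments. They also differed in sex-linked transcripts, with Xist at 116 FPKM in wild type and 0.184 in gl/gl, so sex and genotype cannot be told apart. The gate itself was visible in both: Ptprc (CD45), the pan-leukocyte phosphatase, had 231 FPKM in wild type and 386 in gl/gl. Cd44 had 66.4 FPKM in wild type and 109 in gl/gl, and Il2ra, the CD25 chain that the gate leaves out, had 5.94 FPKM in wild type and 11.7 in gl/gl. Cd3e, a signalling chain of the T cell receptor complex, was present in both, with 77.3 FPKM in wild type and 107 in gl/gl. Cd8a, which marks later thymocytes and some dendritic cells, had 32.7 FPKM in wild type and 7.83 in gl/gl.

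Markers of other lineages differed between the 2 libraries. Of 54 measured granulocyte markers 48 were higher and 3 lower, where 8.39% of all measured genes were higher and 6.26% lower, and their summed level was 616 FPKM in wild type and 36377 in gl/gl. Mrgpra2a, Mrgpra2b, BC117090 and BC100530 were the 4 granulocyte members listed at 0 in wild type. Without predicted genes and small RNAs, this list made up 7.43% of the summed FPKM of gl/gl, against 0.131% in wild type and 0.140% with the transgene. Early progenitor markers summed to 2823 and 972 FPKM, with 29 of 40 lower and 2 higher. Mast cell and basophil markers were lower in 12 of 22 cases and higher in 4, with sums of 632 and 742 FPKM. The most abundant members raised the gl/gl sum: Srgn had 345 FPKM in wild type and 447 in gl/gl, and Fcer1g 37.0 and 210. The protease genes with the greatest differences were lower, with 38.8 and 0.212 FPKM for Mcpt2 and 26.0 and 0.131 FPKM for Mcpt1. With the transgene, Mcpt2 had 1.03 FPKM and Mcpt1 0.0346, on the side of gl/gl and not of wild type. Of 26 monocyte and macrophage markers 17 were higher and 1 lower, with sums of 348 and 2092 FPKM. Natural killer and innate lymphoid markers had 14 of 27 higher and none lower, with sums of 1159.8 and 2823 FPKM. B cell markers had 13 of 24 higher and 4 lower, with sums of 290.5 and 506 FPKM. Dendritic cell markers had 6 of 26 higher and 3 lower, with sums of 1936 and 2461 FPKM. Among stromal markers 7 of 19 were higher and none lower, with sums of 107 and 205 FPKM. T lineage markers summed to almost the same level, 2622 and 2632 FPKM, with 1 of 39 higher and 7 lower. Erythroid and platelet markers had 1 of 9 higher and 3 lower, with sums of 135 and 56.3 FPKM. In a pool of sorted cells, fewer cells of a type and less RNA per cell cannot be told apart. The part of these markers in the differences described below was not tested, so counts outside the 10 cell type lists are given beside the immune groups.

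Across all 12151 genes the libraries were centred on each other, with a median difference of -0.03, quartiles of -0.40 and 0.37 and 5th and 95th percentiles of -1.11 and 1.33. There were 1019 genes higher and 761 lower in gl/gl, and 10371, or 85.4%, within 2-fold. Rescaling to an equal sum outside the granulocyte list, which small RNAs dominate, moved the median by 0.60 and the split to 2719 higher and 286 lower, so gene groups are read below relative to the median of all genes. At 4-fold or more there were 292 higher and 141 lower, and at 16-fold or more 61 and 32. Genes near the floor in 1 library were fewer: leaving out predicted genes, clones and small RNAs, 112 had 5 FPKM or more in gl/gl and less than 1 in wild type, and 43 the reverse. Of the called genes 112 higher and 58 lower stood in any of the 10 cell type lists, which hold 24 to 56 entries each. Genes known from the same cells can lie outside these lists, as does Hk3, a hexokinase of myeloid cells named below. For comparison, the CD2-Ostm1 gl/gl library had 168 genes higher (1.41%) and 212 lower (1.78%) than the same wild type library, among 11905 measured. Its Xist was at 235 FPKM, on the side of wild type and not of gl/gl. Sex and transgene therefore cannot be told apart in these counts.

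**Figure D1:**
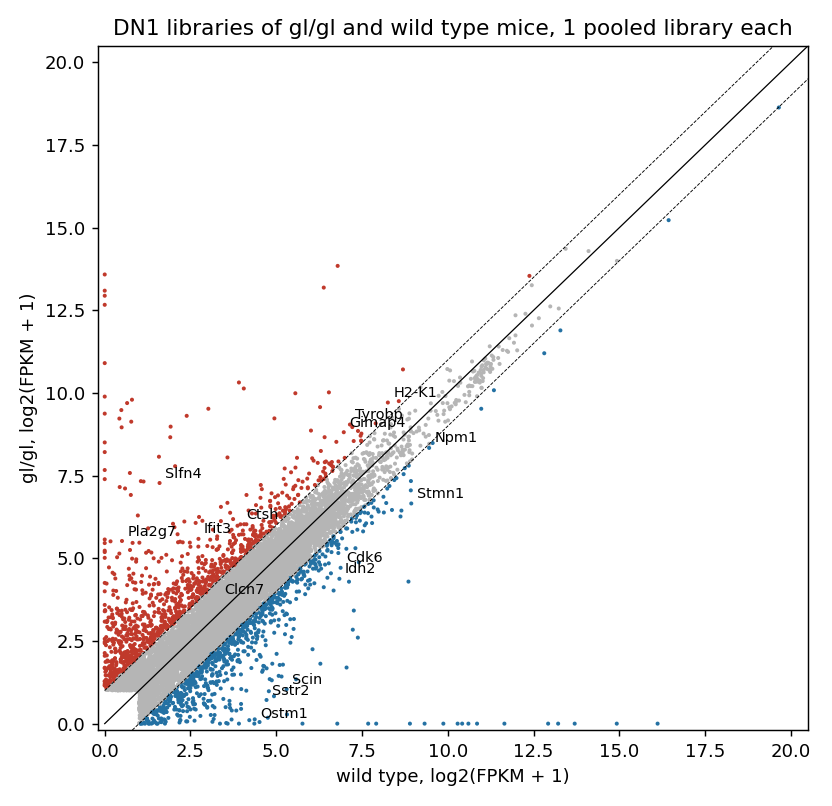
Level of each of the 12151 measured genes outside X and Y in the wild type library (horizontal axis) and the gl/gl library (vertical axis), both as log2(FPKM + 1), 1 point a gene. The solid line marks equal levels and the dashed lines 2-fold, beyond which 1019 genes are higher (red) and 761 lower (blue), and points on an axis are listed at 0 in that library.

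Called genes were not spread evenly over levels. Among genes whose greater value was 100 FPKM or more, 12.97% were higher and 10.4% lower, against 6.29% and 4.83% at 20 to 50 FPKM. Genes at 2 to 5 FPKM came to 12.4% and 8.17%. A gene can enter a bin through the library where it is high, and small RNAs and predicted genes are included. The top shares were therefore not read as a trend with level. At 100 FPKM or more in both libraries, without these entries, 12 of 460 genes were higher and 14 lower. That minimum itself leaves out genes high in only 1 library, so it cannot decide whether such a trend exists. By chromosome, the share of higher genes ran from 5.44% on chromosome 12 to 10.4% on chromosomes 6 and 16, and the share of lower genes from 5% on chromosome 11 to 10.98% on chromosome 13. Chromosome 13 carries the major histone gene cluster, and 24 of its 47 measured Hist1 entries, those that name several genes included, were lower and none higher. Its other 454 entries were lower in 6.83% of cases, close to the 6.26% of all genes. Chromosome 6 carries 3 immune or patterning clusters whose members differed in direction. Its 8 Gimap genes, GTPases of lymphocyte survival, summed to 498 FPKM in wild type and 1322 in gl/gl with 5 higher. Its 6 Hoxa genes, transcription factors of early progenitors, summed to 26.2 and 1.09 FPKM with 5 lower, and its 30 Klr lectin receptor genes had 12 higher and 3 lower.

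Ostm1 lies on chromosome 10 at 42678916 to 42702462 of mm10. It was at 19.6 FPKM in wild type and was listed at 0 in gl/gl. Its partner Clcn7 had 8.94 FPKM in wild type and 12.5 in gl/gl, a difference of 0.45, under 2-fold. The neighbours of Ostm1 differed little: of 22 other measured genes that start within 2 Mb, 20 lay within 2-fold and their median was -0.02. The nearest on either side were Snx3, an endosomal sorting nexin, with 65.03 FPKM in wild type and 64.9 in gl/gl, and Sec63, a subunit of the protein translocation machinery of the endoplasmic reticulum, with 13.4 FPKM in wild type and 12.8 in gl/gl. The 1 lower neighbour was Cep57l1, a relative of a centrosomal protein, with 11.4 FPKM in wild type and 3.33 in gl/gl. The 1 higher was Prdm1 (Blimp-1), a repressor that drives effector differentiation of lymphocytes, with 0.928 FPKM in wild type and 3.29 in gl/gl. Foxo3, a transcription factor of quiescence and survival, had 49.2 FPKM in wild type and 34.3 in gl/gl, and Cd164, a sialomucin of progenitors, had 93.5 FPKM in wild type and 147 in gl/gl, both within 2-fold.

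**Figure D2:**
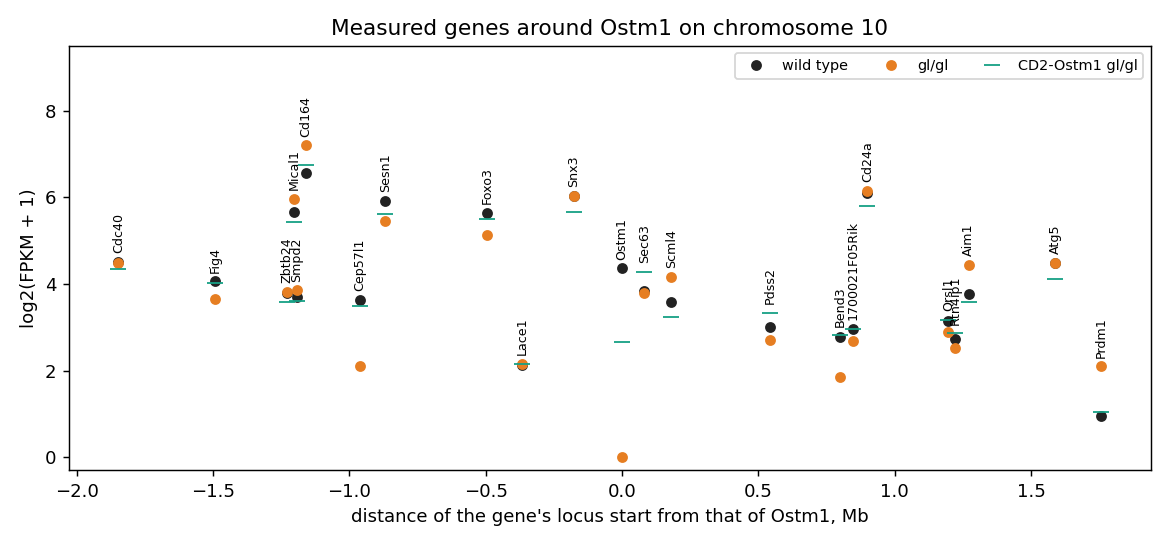
Levels of Ostm1 and of the 22 other measured genes within 2 Mb of it, as log2(FPKM + 1), in wild type (black), gl/gl (orange) and CD2-Ostm1 gl/gl (green dash), by the distance between locus starts in Mb. Ostm1 is at 0 in gl/gl, and 20 of the neighbours lie within 2-fold between wild type and gl/gl.

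Outside the granulocyte, progenitor and mast cell lists, the 20 highest genes included several receptors and enzymes known from phagocytes. Slfn4, a Schlafen family gene of myeloid cells that shares sequence with its relatives, led with 2.03 FPKM in wild type and 154 in gl/gl. Pla2g7, the plasma hydrolase of platelet-activating factor, had 0.417 FPKM in wild type and 45.05 in gl/gl, and Cyp4f18, which hydroxylates leukotriene B4, had 0.343 FPKM in wild type and 34.4 in gl/gl. Gda, guanine deaminase, had 0.756 FPKM in wild type and 43.2 in gl/gl. Receptors followed: the inhibitory receptor Cd300lf had 0.667 FPKM in wild type and 37.1 in gl/gl. The complement C5a receptor gene C5ar1 had 0.173 FPKM in wild type and 22.7 in gl/gl, the chemokine receptor gene Ccr1 had 0.739 FPKM in wild type and 30.8 in gl/gl, and the Fc receptor gene Fcgr4 had 0.239 FPKM in wild type and 19.97 in gl/gl. Cd14, the lipopolysaccharide co-receptor, had 1.43 FPKM in wild type and 36.3 in gl/gl, and Saa3, an acute-phase protein, had 0.645 FPKM in wild type and 21.2 in gl/gl. Ceacam10 was listed at 0 in wild type and had 18.1 FPKM in gl/gl. Hk3, a hexokinase of myeloid cells, had 0.628 FPKM in wild type and 24.7 in gl/gl, and Anxa3, an annexin of neutrophil granules, had 0.891 FPKM in wild type and 30.4 in gl/gl. The other members of the 20 were Ccl6, Tgfbi, Wfdc17, Trim12a, Trnp1, Crispld2 and Lars2. Lars2, the mitochondrial leucyl-tRNA synthetase, stood apart with 46.1 FPKM in wild type and 1018 in gl/gl, and it was at 237 FPKM in CD2-Ostm1 gl/gl, where all the others but Slfn4 were under 3 FPKM. In the same libraries the ribosomal RNA precursor Rn45s had 5593 FPKM in wild type and 9819.9 in gl/gl, with 9511 in CD2-Ostm1 gl/gl, and its part in the Lars2 values was not tested.

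The 20 lowest genes had wild type levels of 8.04 FPKM or more. After Ostm1 came Scin, the actin-severing protein scinderin, with 38.5 FPKM in wild type and 1.06 in gl/gl. Sstr2, a somatostatin receptor, had 25.3 FPKM in wild type and 0.641 in gl/gl, and Mc5r, a melanocortin receptor, had 12.03 FPKM in wild type and 0.318 in gl/gl. Slc22a3, an organic cation and histamine transporter, had 26.6 FPKM in wild type and 0.972 in gl/gl. Mdfi, an inhibitor of myogenic basic helix-loop-helix factors, had 32.6 FPKM in wild type and 1.72 in gl/gl, and Hnf4a, a nuclear receptor known best from liver, had 11.97 FPKM in wild type and 0.0903 in gl/gl. Nme4, a mitochondrial nucleoside diphosphate kinase, had 35.6 FPKM in wild type and 2.44 in gl/gl. Afap1l1, an actin-binding adaptor, had 28.3 FPKM in wild type and 1.48 in gl/gl, and Myl10, a myosin light chain, had 25.4 FPKM in wild type and 2.19 in gl/gl. Car1, carbonic anhydrase 1, had 10.99 FPKM in wild type and was listed at 0 in gl/gl. In CD2-Ostm1 gl/gl it had 0.815 FPKM, whereas Slc22a3 and Hnf4a had 26.5 and 14.1 there. Kif17, a kinesin, had 8.04 FPKM in wild type and 0.102 in gl/gl, and Sema3d, a secreted semaphorin, had 10.5 FPKM in wild type and 0.412 in gl/gl. The others were Sh2d5, Eltd1, Bex6, Epb4.1l4b, Osbpl1a, Gtdc2 and Ccdc135, with wild type levels from 8.21 to 34.6 FPKM and gl/gl levels from 0.198 to 2.51.

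**Figure D3:**
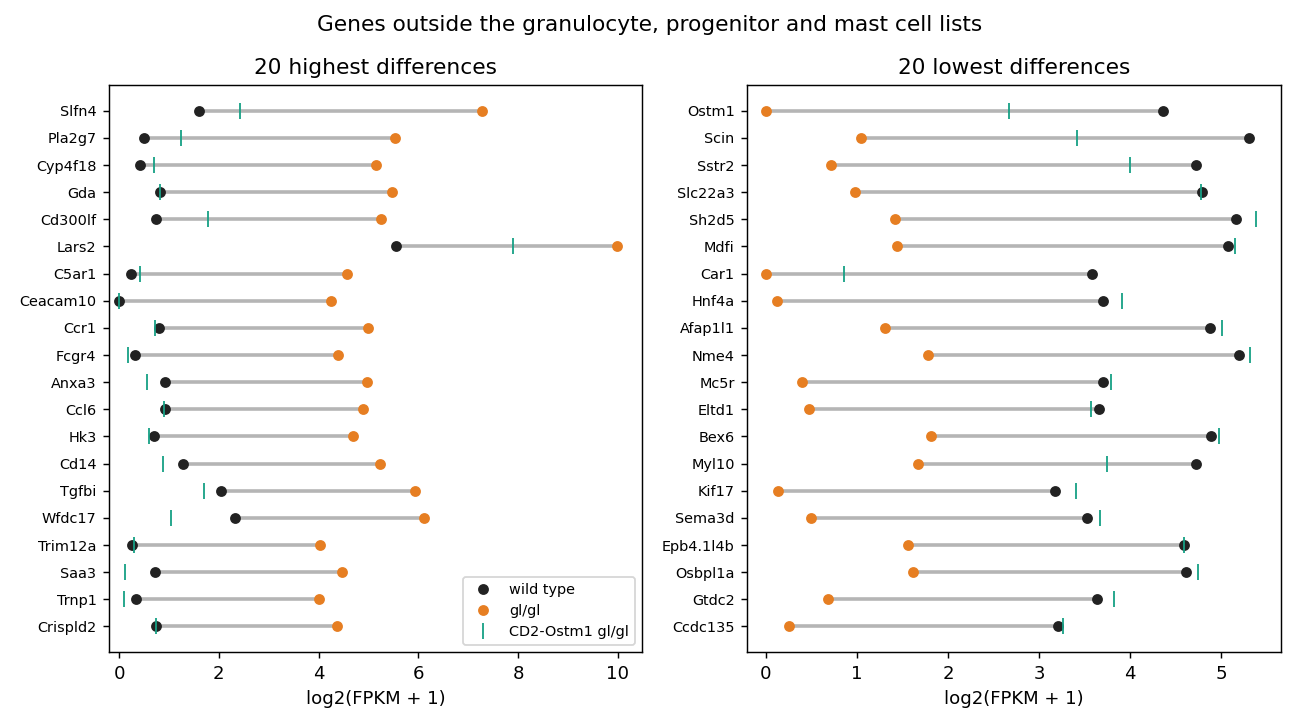
The 20 highest and the 20 lowest genes of gl/gl against wild type outside the granulocyte, early progenitor and mast cell lists, each with its log2(FPKM + 1) in wild type (black), gl/gl (orange) and CD2-Ostm1 gl/gl (green mark). Ceacam10 is listed at 0 in wild type, and Ostm1 and Car1 are listed at 0 in gl/gl.

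A minimum of 100 FPKM in both libraries leaves out genes that are high in only 1 of them. Of the 460 genes that met it 12 were higher, 14 lower and 434 within 2-fold, with a median of -0.17. After S100a8, a granulocyte gene, the highest was Tyrobp, followed by Gimap4, Il2rb and S100a6. Tyrobp (DAP12), the adaptor of many activating receptors, had 141 FPKM in wild type and 528 in gl/gl, Gimap4 had 124 FPKM in wild type and 449 in gl/gl, and Il2rb, a chain of the interleukin-2 and interleukin-15 receptors, had 107 FPKM in wild type and 367 in gl/gl. The lowest was Stmn1. This gene encodes stathmin, which destabilises microtubules, and had 489 FPKM in wild type and 100.1 in gl/gl. H2afy, the histone variant macroH2A, had 485 FPKM in wild type and 132 in gl/gl, and Hist1h1a, a linker histone, had 486 FPKM in wild type and 161 in gl/gl. Hsp90aa1, a chaperone, had 294 FPKM in wild type and 101 in gl/gl, and Skp1a, a subunit of SCF ubiquitin ligases, had 278 FPKM in wild type and 115 in gl/gl.

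Lists of immune effectors and receptors had medians above that of all genes. Lists of proliferation and biosynthesis had medians below it, except G1 control, which lay close to it at -0.02. Without the cell type and gate marker lists, the highest medians were those of paired and inhibitory receptors at 1.66, chemokines at 0.97, chemokine and chemoattractant receptors at 0.90 and interferon-stimulated genes at 0.88. The lowest among the same lists were DNA replication at -0.996, nucleotide synthesis and mitosis at -0.74 each, and ribosome biogenesis at -0.54. Some genes stand in several lists, and the counts describe these libraries and are no test. Each count is to be read against the 8.39% higher and 6.26% lower of all measured genes. From here on, a pair of FPKM values gives wild type first and gl/gl after it.

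**Figure D4:**
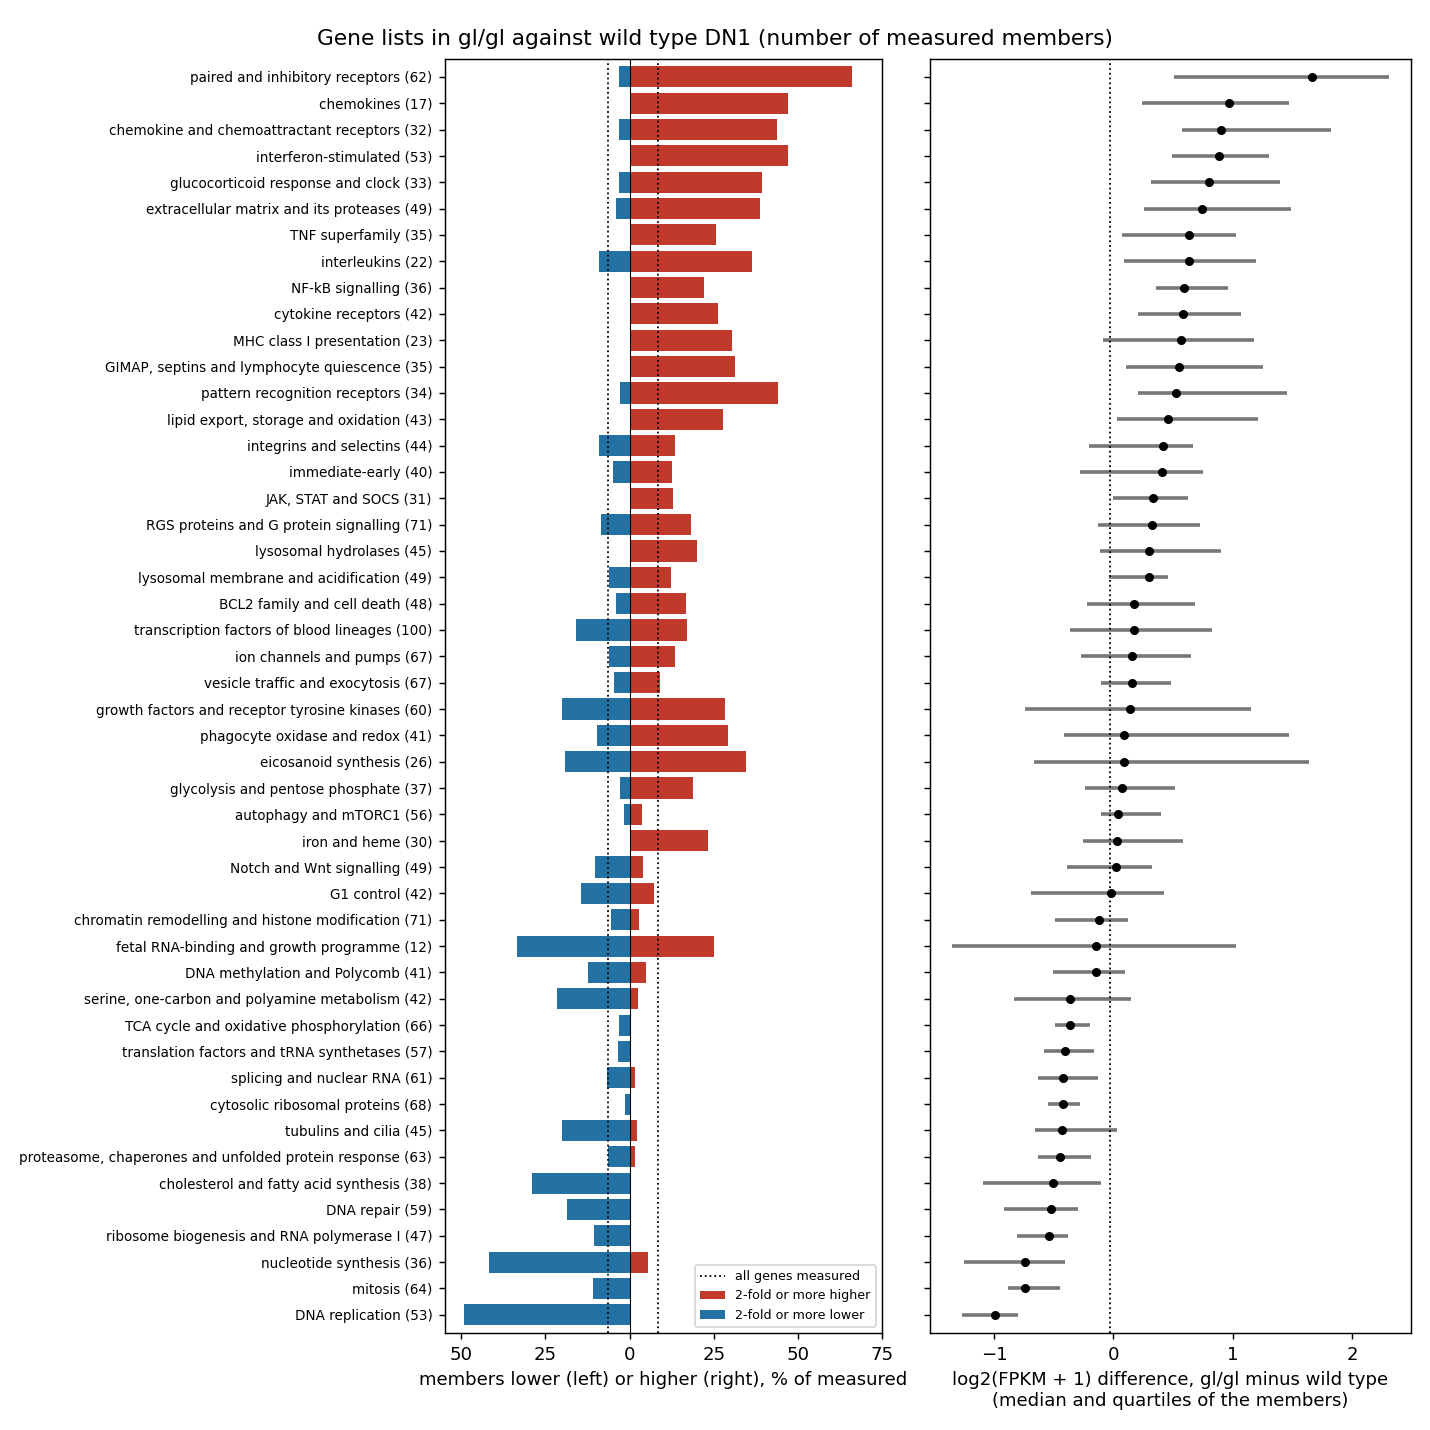
Left, the percentage of measured members of 48 gene lists that were 2-fold or more higher (red, to the right) or lower (blue, to the left) in gl/gl than in wild type, with dotted lines at 8.39% and 6.26% for all genes. Right, the median (dot) and quartiles (bar) of the members' log2(FPKM + 1) differences, with a dotted line at the median of all genes, -0.03, and the number of members in brackets.

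Lysosomal genes are the group closest to the function of Ostm1. Of 45 measured hydrolases and their cofactors 9 were higher and none lower, with a median of 0.30. The highest was Ctsh, cathepsin H, with 14.5 and 64.3 FPKM. Acp5, the tartrate-resistant phosphatase of osteoclasts and macrophages, had 20.2 and 80.9 FPKM. Galc, the hydrolase of galactosylceramide, had 2.83 and 9.16 FPKM. Psap and Ctsd, the prosaposin and cathepsin D genes and the most abundant of the group, were within 2-fold, with 381 and 733 FPKM for Psap and 229.7 and 389 FPKM for Ctsd. Among 49 genes of the lysosomal membrane and its proton pump 6 were higher and 3 lower, with a median of 0.30. Of all measured genes 8.39% were higher and 6.26% lower, so the lower share was near that of all genes. Lower beside Ostm1 were Mcoln3, a cation channel, with 7.48 and 1.38 FPKM, and Laptm4b, with 17.4 and 7.23 FPKM. Higher were Slc11a1 (Nramp1), the divalent metal exporter of phagosomes, with 0.554 and 12.4 FPKM, Atp6v0a1, a proton pump subunit, with 2.70 and 10.5 FPKM, and Cd68, a macrophage membrane protein, with 5.11 and 17.9 FPKM. Autophagy and mTORC1 genes stayed near the centre, with 2 of 56 higher, 1 lower and a median of 0.04. The 2 higher were Ddit4 (REDD1), an inhibitor of mTORC1, with 52.2 and 139 FPKM, and Wipi1. The lower was Gabarapl1, a ubiquitin-like protein of autophagosomes, with 49.7 and 14.98 FPKM.

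Paired and inhibitory receptors, which set the threshold of leukocyte activation through ITIM and ITAM motifs, had the greatest share of higher genes among the lists other than those of cell types. There were 41 of 62 higher and 2 lower, and outside the cell type lists 34 of 53 and 2. Trem3 and Trem1, activating receptors of myeloid cells, had 0.284 and 31.7 FPKM for Trem3 and 0.189 and 13.9 FPKM for Trem1. Pira1, which belongs to a family of near-identical activating receptors and is therefore uncertain on its own, had 0.302 and 13.003 FPKM. Clec2d, a lectin ligand of an inhibitory receptor of natural killer cells, was abundant in both, with 208 and 279.8 FPKM. The 2 lower members were Pdcd1 (PD-1), with 69.8 and 30.1 FPKM, and Slamf8, with 3.31 and 0.784 FPKM.

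Of 17 chemokines 8 were higher in gl/gl and none was lower, and outside the cell type lists 5 of 12. Ccl6, a chemokine of myeloid cells, had 0.886 and 28.8 FPKM. Xcl1 and Ccl4, products of activated natural killer and T cells, had 65.2 and 259.7 FPKM for Xcl1 and 6.41 and 19.1 FPKM for Ccl4. Cxcl12, the stromal ligand of Cxcr4, had 2.31 and 11.2 FPKM. Among 32 of their receptors 14 were higher, and 1, S1pr3, was lower. Outside the cell type lists 9 of 22 were higher. The formyl peptide receptor genes Fpr2 and Fpr1, which are close copies, had 0.695 and 119.9 FPKM for Fpr2 and 0.124 and 44.7 FPKM for Fpr1. Cxcr2, the receptor of neutrophil chemokines, had 2.97 and 65.1 FPKM. Cxcr6, a receptor of innate lymphoid and natural killer T cells, was close in both, with 155 and 197 FPKM.

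Most cytokine and receptor genes that differed by 2-fold were higher in gl/gl. Of 22 interleukins and related cytokines 8 were higher and 2 lower, and outside the cell type lists 5 of 17 were higher. Osm, oncostatin M, had 6.13 and 15.9 FPKM, and Ifng, interferon gamma, had 4.53 and 15.4 FPKM. Il12a, a subunit of interleukin-12 and interleukin-35, was lower, with 11.1 and 2.47 FPKM. Cytokine receptors had 11 of 42 higher and none lower, and outside the cell type lists 8 of 35. Il1r2, the decoy receptor of interleukin-1, had 1.01 and 43.4 FPKM, and Csf3r, the G-CSF receptor, had 1.57 and 35.1 FPKM. Lifr had 3.89 and 21.6 FPKM, Il6ra 4.27 and 19.3 FPKM and Il9r 3.41 and 15.3 FPKM. Il7r, the receptor of the main survival cytokine of early thymocytes, had 182 and 286 FPKM, within 2-fold. Of 35 TNF ligand and receptor genes 9 were higher and none lower, and outside the cell type lists 9 of 34. Tnfrsf13c, the BAFF receptor of B cells, had 2.06 and 12.1 FPKM, and Tnfrsf18 (GITR) had 29.2 and 73.8 FPKM. Cd27, a co-stimulatory receptor of lymphocytes and progenitors, was in the other direction within 2-fold, with 97.9 and 54.9 FPKM.

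Intracellular sensing and signalling genes lay above the median as well. In the NF-kB list, none of which stood in a cell type list, 8 of 36 were higher and none lower, and 35 had a difference above 0. Card9, an adaptor of lectin receptors, had 3.27 and 11.03 FPKM, and Irak2, a kinase downstream of Toll-like receptors, had 6.75 and 18.5 FPKM. Nfkbia, the inhibitor that NF-kB itself induces, had 78.5 and 162 FPKM. Pattern recognition receptors were higher in 15 of 34 cases, 14 of 33 outside the cell type lists, and the 1 lower was Tlr11. Clec5a and Clec7a (dectin-1), lectins of myeloid cells, had 0.278 and 10.1 FPKM for Clec5a and 1.64 and 11.6 FPKM for Clec7a. Tlr2 had 4.66 and 17.01 FPKM, and Tmem173 (STING), the adaptor of cytosolic DNA sensing, had 54.8 and 47.1 FPKM. Of 31 JAK, STAT and SOCS genes 4 were higher, and none was lower. All 4 were negative regulators: Cish had 7.85 and 39.4 FPKM, Socs2 5.35 and 18.8 FPKM, Socs3 22.3 and 55.6 FPKM, and the phosphatase gene Ptpn1 30.9 and 77.5 FPKM.

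Interferon-stimulated genes stood almost wholly outside the cell type lists, which does not set them apart from the cells of those lists, whose part was not tested. There were 25 of 53 higher and none lower, and 24 of 52 outside the cell type lists. Ifit3 and Ifit1, tetratricopeptide proteins that bind viral RNA, had 5.65 and 47.1 FPKM for Ifit3 and 9.16 and 40.2 FPKM for Ifit1. Rsad2 (viperin), which makes a chain-terminating nucleotide, had 1.29 and 14.6 FPKM. Mx1, a dynamin-like GTPase that blocks influenza viruses, had 3.82 and 18.8 FPKM, and Slfn1 had 20.3 and 96.6 FPKM. Ifi27l2a, among the most abundant of the group, had 178 and 437 FPKM. Psmb8, a subunit of the immunoproteasome, differed little, with 334 and 289 FPKM. In class I presentation, with no member in a cell type list, 7 of 23 genes were higher and none was lower. H2-K1, a classical class I heavy chain, had 304 and 838 FPKM, and B2m, its light chain, had 1014 and 1694 FPKM. Nlrc5, the transactivator of class I genes, had 12.2 and 31.2 FPKM. Class I genes are close copies and their alleles differ between 129 and C3H mice, so the separate values of H2-K1, H2-Q4, H2-Q10 and H2-T24 are uncertain.

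Genes of lipid mediators and redox enzymes were split within each group. Of 26 eicosanoid genes 9 were higher and 5 lower (8 of 23 higher outside the cell type lists), with a median of 0.09. Alox5ap, which presents arachidonic acid to 5-lipoxygenase, had 77.9 and 303 FPKM, and Alox5, that lipoxygenase, had 1.79 and 19.8 FPKM. Pla2g4a, the cytosolic phospholipase that releases arachidonic acid, was lower, with 23.6 and 2.36 FPKM. Of 41 oxidase and redox genes 12 were higher and 4 lower, and outside the cell type lists 11 of 40 were higher. Ncf1, a cytosolic subunit of the phagocyte oxidase, had 22.3 and 113 FPKM, Gsr, glutathione reductase, had 22.9 and 135 FPKM, and Gpx1, the most abundant peroxidase of the list, had 472 and 308 FPKM. Of 30 iron and heme genes 7 were higher, and outside the cell type lists 4 of 26, with none lower. Slc40a1 (ferroportin), the iron exporter, had 1.69 and 17.6 FPKM, and Hmox1, which degrades heme, had 0.878 and 8.77 FPKM. The ferritin chains had 322 and 497 FPKM for Fth1 and 727 and 825 FPKM for Ftl1.

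Genes of DNA replication lay on the lower side throughout. All 53 measured members had a difference below 0, 26 of them 2-fold or more lower, and their summed level was 2103 FPKM in wild type and 985 in gl/gl. Mcm6, a subunit of the replicative helicase, had 190.3 and 62.98 FPKM, and Gins1, part of the same active helicase, had 18.95 and 5.07 FPKM. Cdc6, which loads the helicase, had 10.2 and 2.88 FPKM, and Pcna, the sliding clamp of the polymerases, had 217 and 101 FPKM. Uhrf1, which recruits the maintenance methyltransferase to new DNA, had 78.3 and 24.8 FPKM. The Hist1 genes of chromosome 13, of which 24 of 47 were lower, lay on the same side. The source of nucleotides differed too, with 15 of 36 lower. Paics, an enzyme of purine synthesis, had 184 and 55.3 FPKM, and Impdh2, the committed step to guanine nucleotides, had 196 and 65.7 FPKM. The 2 higher nucleotide genes were both catabolic: Upp1, uridine phosphorylase, had 0.774 and 10.2 FPKM, and Samhd1, a hydrolase of deoxynucleotides, had 45.3 and 110.1 FPKM. In mitosis 7 of 64 genes were lower and none higher, and 60 had a difference below 0. Cdk1, the mitotic kinase, had 14.7 and 6.16 FPKM, and Cdc20, an activator of the anaphase-promoting complex, had 27.5 and 12.5 FPKM. DNA repair genes were lower in 11 of 59 and higher in none. Xrcc6 (Ku70), which binds broken ends, had 95.7 and 22.4 FPKM, and Parp1, which senses strand breaks, had 102 and 43.3 FPKM.

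Genes of G1 control differed in both directions, with 3 of 42 genes higher and 6 lower around a median of -0.02. Among the lower were the kinases that start S phase: Cdk6 had 117 and 25.2 FPKM and Cdk4 had 218 and 75.8 FPKM. Mycn, a MYC family factor of progenitors, had 41.6 and 4.46 FPKM. The 3 higher genes are known as brakes on division, but their share was near the 8.39% of all measured genes. Mxd1, an antagonist of MYC, had 13.6 and 62.4 FPKM, Btg1, an anti-proliferative gene of resting lymphocytes, had 73.03 and 236 FPKM, and Cdkn2d (p19), an inhibitor of both kinases, had 31.8 and 78.7 FPKM.

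Biosynthesis lists had medians below that of all genes by small amounts. Of 47 ribosome biogenesis genes 44 had a difference below 0 and 5 were lower, among them Npm1 (nucleophosmin) with 702 and 323 FPKM and Nop58, a core protein of small nucleolar particles, with 88.7 and 36.5 FPKM. Cytosolic ribosomal protein genes had a median of -0.42, with 66 of 68 below 0 and 1 lower, Rpl26, at 60.1 and 16.05 FPKM. These genes have many processed copies, which makes single values uncertain. Translation factors and tRNA synthetases had a median of -0.41 and 2 of 57 lower, Eef2k with 29.7 and 7.71 FPKM and Eef1g with 754 and 358 FPKM. Mitochondrial respiration followed the same pattern, with a median of -0.36 over 66 genes. The 2 members lower by 2-fold or more were Idh2, the mitochondrial NADP-dependent isocitrate dehydrogenase, with 114 and 19.8 FPKM, and Suclg2, with 46.98 and 20.7 FPKM. Proteasome and chaperone genes had a median of -0.45, and the chaperonin gene Hspd1 had 172 and 69.5 FPKM. The 1 higher member, Ddit3 (CHOP), a transcription factor of the unfolded protein response, had 9.91 and 21.2 FPKM. Splicing genes had a median of -0.42, while the nuclear non-coding RNA Neat1 was higher, with 46.2 and 213 FPKM, and Malat1 had 1073 and 1645 FPKM. Summed levels with the transgene, given last, were nearer gl/gl for ribosomal proteins (118417, 90165 and 93645 FPKM) and respiration (8270, 6395 and 6585). The same held for translation (14000, 10692 and 11324) and for proteasome and chaperone genes (7943, 5430 and 6414). They were nearer wild type for ribosome biogenesis (2603, 1558 and 2283) and splicing (9222, 7940 and 9922). Whether these small differences belong to the genotype or to the wild type library was not tested.

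**Figure D5:**
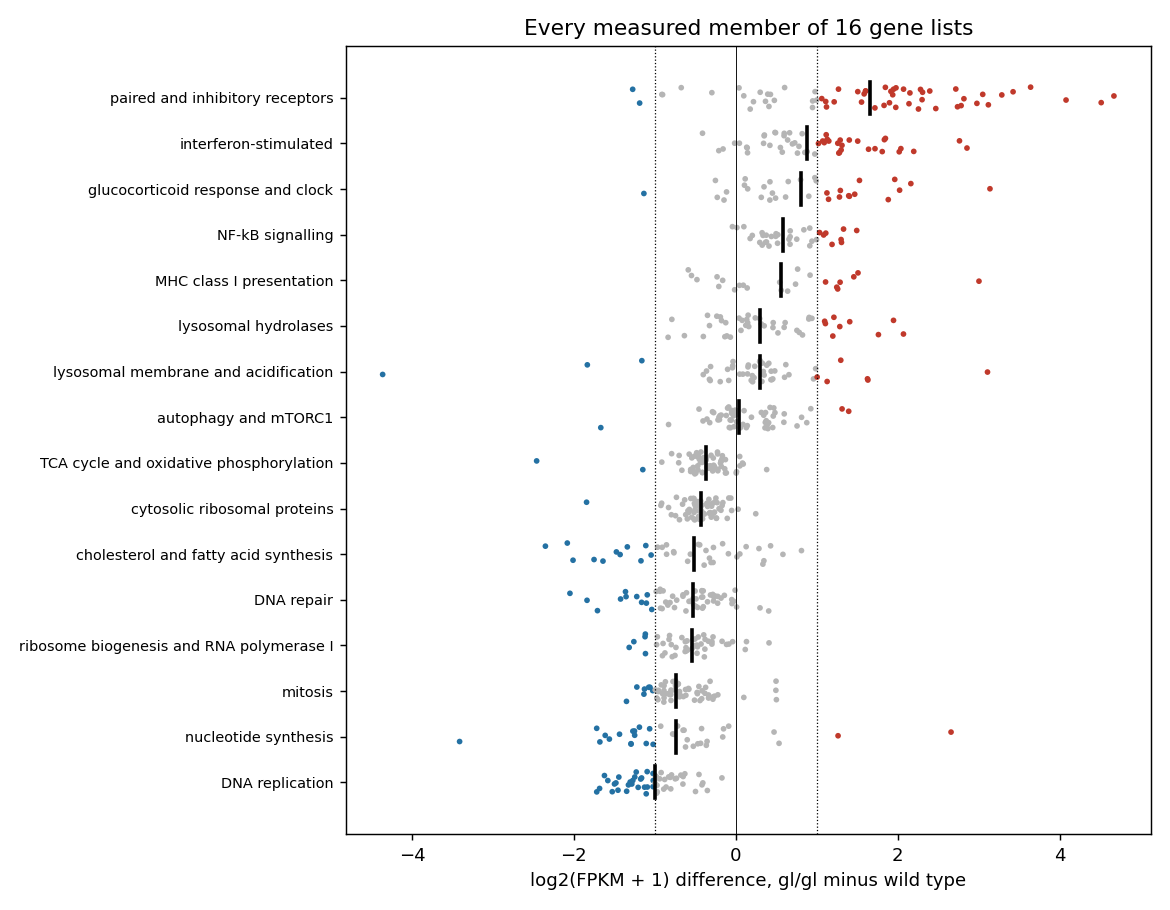
Log2(FPKM + 1) difference of gl/gl minus wild type for every measured member of 16 gene lists, 1 point a gene, red where 2-fold or more higher and blue where lower, with a black bar at the median of each list. All 53 DNA replication genes lie below 0 and 35 of 36 NF-kB genes above it, while the ribosomal protein and respiration lists lie in narrow bands at -0.42 and -0.36.

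Metabolic genes differed between pathways. In serine, one-carbon and polyamine metabolism 9 of 42 genes were lower. Phgdh, the first enzyme of serine synthesis, had 131 and 38.1 FPKM, and Shmt1, which passes the carbon of serine to folate, had 20.3 and 5.39 FPKM. The 1 higher was Arg2, arginase 2, with 0.293 and 5.88 FPKM. Cholesterol and fatty acid synthesis had 11 of 38 lower and none higher. Fads2, a desaturase of polyunsaturated fatty acids, had 44.7 and 7.97 FPKM. Genes of lipid export, storage and oxidation went the other way, with 12 of 43 higher and none lower, and 10 of 41 outside the cell type lists. Apoe, an apolipoprotein secreted by macrophages, had 63.6 and 465 FPKM, Dgat2, which makes triglyceride, had 1.97 and 18.1 FPKM, and G0s2, an inhibitor of triglyceride lipase, had 0.411 and 9.67 FPKM. In glycolysis 7 of 37 were higher. Beside Hk3 these included Pygl, glycogen phosphorylase, with 10.9 and 101 FPKM, and the glucose transporter Slc2a3, with 19.4 and 55.3 FPKM. The abundant enzymes Pkm and Ldha, pyruvate kinase and lactate dehydrogenase, were close in both, with 306 and 298 FPKM for Pkm and 290.0 and 254 FPKM for Ldha.

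Chromatin regulators were near the median, with few large differences. In DNA methylation and Polycomb 5 of 41 genes were lower. Dnmt3b, a de novo methyltransferase, had 38.2 and 6.92 FPKM, Cbx2 had 21.2 and 5.77 FPKM, and Tet1, which oxidises methylcytosine, had 7.55 and 2.11 FPKM. Cbx7, another Polycomb chromodomain protein, was higher, with 6.77 and 19.5 FPKM. Of 71 remodelling genes 4 were lower and 2 higher, shares not above the 6.26% and 8.39% of all genes. Among them were Hdac2 with 67.5 and 29.9 FPKM and Chd7 with 5.91 and 16.01 FPKM. Zinc finger genes with a Zfp symbol, 297 single-gene entries in all, had 1 higher and 13 lower. Transcription factors of blood lineages had 17 of 100 higher and 16 lower. Outside the cell type lists the split was less even, with 11 of 70 higher and 6 lower. Cebpe and Cebpd, factors of granulocyte maturation, had 0.214 and 21.97 FPKM for Cebpe and 0.883 and 15.6 FPKM for Cebpd. Myb, a factor of progenitor division, had 138 and 18.6 FPKM, and Tal1 and Gfi1b, factors of stem and erythroid cells, had 5.91 and 0.175 FPKM for Tal1 and 7.87 and 0.449 FPKM for Gfi1b. The fetal growth list was mixed over 12 genes: Lin28a, an RNA-binding protein of fetal and stem cells, had 0.0557 and 7.61 FPKM, H19, an imprinted non-coding RNA, had 1.02 and 5.77 FPKM, and Bcl11a, a factor of lymphoid progenitors, was lower with 31.8 and 11.5 FPKM.

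Lists of hormone response and quiescence had medians above that of all genes. Of 33 glucocorticoid and clock genes 13 were higher and 1 lower, and all 13 stood outside the cell type lists. The greatest differences were those of Cebpd, named above as a factor of granulocyte maturation, with 0.883 and 15.6 FPKM, and Cebpb, with 12.001 and 57.2 FPKM. Standing outside the lists therefore does not set these genes apart from the granulocyte markers, whose part in this group was not tested. Bhlhe40, a repressor linked to the clock, had 6.11 and 27.9 FPKM, and Hsd11b1, which regenerates active glucocorticoid, had 12.5 and 48.9 FPKM. Txnip, an inhibitor of glucose uptake, had 166 and 461 FPKM. The 1 lower was Fkbp4, a chaperone of the glucocorticoid receptor, with 98.7 and 44.4 FPKM. In the list of GIMAP, septin and quiescence genes 11 of 35 were higher and none lower, and outside the cell type lists 10 of 32. Klf2, which maintains resting T cells, had 30.2 and 114 FPKM, Gimap3 had 47.7 and 262 FPKM, and Gimap7 had 14.1 and 51.4 FPKM. Among BCL2 family and death genes 8 of 48 were higher and 2 lower. Both pro-death and survival members were higher: Pmaip1 (NOXA) had 1.42 and 5.65 FPKM, Bbc3 (PUMA) had 5.54 and 28.8 FPKM, and Bcl2 had 18.6 and 81.005 FPKM. Mlkl, the effector of necroptosis, was lower, with 7.86 and 2.10 FPKM. Immediate-early genes had 5 of 40 higher and 2 lower, with Gadd45g at 1.97 and 17.7 FPKM and Jun, a subunit of AP-1, at 41.3 and 11.7 FPKM.

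Lists of developmental signalling held genes in both directions. Of 49 Notch and Wnt genes 5 were lower and 2 higher, with a median of 0.02. Notch1, the receptor that commits progenitors to the T lineage, had 108 and 41.4 FPKM, and its target Hes1 had 42.7 and 5.15 FPKM. Maml3, a co-activator of Notch, had 13.96 and 2.81 FPKM, whereas Lfng, which modifies Notch, was higher with 74.2 and 163 FPKM. Growth factors and receptor tyrosine kinases had 17 of 60 higher and 12 lower, and outside the cell type lists 16 of 50 and 6. Pdgfrb, a platelet-derived growth factor receptor, had 46.8 and 1.53 FPKM, Gfra1, a co-receptor of GDNF, had 14.7 and 0.363 FPKM, and Igfbp4, a binding protein of insulin-like growth factors, had 169 and 28.5 FPKM. Acvrl1 (ALK1), a receptor of the TGF-beta family, was higher, with 1.55 and 13.98 FPKM. Smo, the transducer of Hedgehog signals, had 24.7 and 4.74 FPKM. Among RGS and G protein genes 13 of 71 were higher and 6 lower. Pde2a, a cyclic nucleotide phosphodiesterase, had 7.43 and 46.3 FPKM, and the adhesion receptor gene Cd97 had 36.2 and 168 FPKM.

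Adhesion, matrix and cytoskeleton genes followed. Of 49 genes of the matrix and its proteases 19 were higher and 2 lower, and outside the cell type lists 17 of 44. Fn1, fibronectin, had 0.856 and 18.2 FPKM, Plaur, the urokinase receptor, had 3.40 and 43.8 FPKM, and Adam8, a membrane metalloproteinase of leukocytes, had 3.77 and 32.4 FPKM. Integrins and selectins had 6 of 44 higher and 4 lower, where 8.39% of all genes were higher and 6.26% lower. Itgam (CD11b) had 5.72 and 75.2 FPKM, and Itga9 had 14.8 and 1.06 FPKM. Tubulin and cilium genes lay lower, with 9 of 45, and Tubb5, the most abundant tubulin of the list, had 429 and 211 FPKM. In vesicle traffic 6 of 67 genes were higher and 3 lower. The shares were near those of all genes, 8.39% and 6.26%. Among the higher, Stx11, a syntaxin, had 4.34 and 24.9 FPKM, Rab27a, a GTPase of granule docking, had 38.3 and 90.9 FPKM, and Lyst, a regulator of lysosome size, had 17.1 and 45.7 FPKM. Ion channels and pumps had 9 of 67 higher and 4 lower, the lower share again near that of all genes. Atp1b1, a subunit of the sodium pump, had 15.7 and 64.4 FPKM, and Kcnk12, a potassium channel, had 5.29 and 0.344 FPKM.

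Promoter windows could be read for 8921 of the 11062 measured genes outside predicted genes, clones and small RNAs, or 80.6%, with 450 matched by an older symbol. Each window held the 250 bases before and 50 after the start, and motifs were searched on both strands. An E2F site, TTTCCCGC or TTTGGCGC, stood in 27.9% of the 43 windows of DNA replication genes, 6.23% of the 546 windows of lower genes, 3.19% of the windows of measured genes and 1.64% of all 25748 windows. Mcm6 and Cdc6, printed above, are among them. The PU.1 element GAGGAAG stood in 40.0% of the 50 windows of paired receptors, 11.2% of those of lower genes, 13.6% of those of measured genes and 13.3% of all. For the higher genes as a whole and for the interferon list, fewer than 80% of the members had a window (76.8% and 79.2%). The same held for the cholesterol list, searched for a sterol element, and the proteasome and chaperone list, searched for a heat shock element (73.7% and 79.4%). The shares of these 4 sets are void and are not given. Other motifs were searched and are not described. A match of letters is a description of the window and shows no binding.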

How the data were processed

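DN1 cells were sorted on a MoFlo instrument, RNA was extracted with MagMAX and sequenced from TruSeq libraries on an Illumina HiSeq instrument, per the labels' protocols. The submitters' processing notes name TopHat2 2.0.10, Cuffdiff 2.2.1 and mm10; the sources used here do not give their roles, the annotation, the strand setting or the scaling between libraries. The header of the deposited table names no unit, and its values were read as FPKM, which Cuffdiff writes. Of 23352 lines 23348 were used, 1 empty and 3 without a number being left out, and 98 name more than 1 gene. The steps between the lowest deposited FPKM gave a rough depth: with 200-base fragments assumed, each fragment on 1 kb added about 0.0202 FPKM (wild type) or 0.0336 (gl/gl), and 1 FPKM on 2 kb about 89.1 and 53.6 fragments. These estimates cover counting error only.

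Values were compared as log2(FPKM + 1) with a minimum of 1 FPKM in 1 of the 2 libraries and a threshold of 2-fold, in Python 3.11.15 with pandas 2.3.3. Simulated data served to test the counting code. A list's summed FPKM includes its members under the minimum. The members, the 60 gene lists (2960 entries, 2403 distinct genes measured) and the alternatives were chosen with earlier results of these data known. The text names Ostm1, Clcn7 and genes starting within 2 Mb of Ostm1; the 20 highest and 20 lowest genes at 5 FPKM or more in 1 library outside the granulocyte, progenitor and mast cell lists and without predicted genes, clones and small RNAs; for each list some of the 5 members with the greatest difference and the 2 most abundant; the 5 highest and 5 lowest genes at 100 FPKM or more in both; and members that spell out a small count. Cd44, Cd3e, Il2ra, Xist, the Y-linked genes, Rn45s and Scarna2 were chosen after their values were seen. A few of these genes and 1 list are left out of the text. Other pseudocounts, filters, scalings and thresholds were tried. Promoter windows came from RefSeq (GRCm38.p6).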

Additional observations from a re-analysis of the deposited data

Results flagged for a closer look

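The Y-linked genes were outside the comparison, which left out X and Y, and 4 of them gave a signal in gl/gl that was near 0 in wild type. Eif2s3y, a translation factor subunit, was at 59.8 FPKM in gl/gl, against 0.0338 in wild type. Ddx3y, an RNA helicase, had 34.8 and 0.0311 FPKM, and Kdm5d, a histone demethylase, had 12.3 and 0.0146. Uty, a relative of a histone demethylase, had 11.8 FPKM in gl/gl and was listed at 0 in wild type. The 4 genes were below 0.1 FPKM in CD2-Ostm1 gl/gl as well.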

How the results depend on the processing

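The counts of 1019 higher and 761 lower genes became 505 and 337 with a pseudocount of 5 and 1395 and 1092 with 0.1. A threshold of 1.5-fold gave 2037 and 1961, and 4-fold gave 292 and 141. Rescaling to an equal sum outside the granulocyte list gave 2719 and 286 (90.5% of calls higher, against 57.2%). It multiplied gl/gl by 1.58 against wild type, and the sum is dominated by Scarna2, at 824149 FPKM in wild type and 407886 in gl/gl. Of the 60 list medians 15 changed sign there, but relative to the median of all genes only the T lineage list changed side. An equal sum that also left out small RNAs, an alternative chosen after seeing the data, moved the median by 0.10 and gave 1175 and 635, and again the T lineage list changed side. The other filters and scalings, X and Y kept in, and predicted genes left out each stayed within 1.5 times both counts. The fetal growth list changed side of the median of all genes without a filter, the growth factor list with a filter of 5 FPKM, and the T lineage list also with X and Y kept or predicted genes left out. No paired analysis was possible because each genotype has 1 library, and for the same reason no library could be left out.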
